A study of Mus musculus with 6 samples.

Results

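The 10 genes described here encode the colony-stimulating factors, cytokines of the interleukin-6 (IL-6) family and receptor chains of that family. They are the ligand genes Csf1, Csf2, Csf3, Il34, Il6, Il11 and Lif and the receptor genes Lifr, Osmr and Il6st, taken by symbol from a table of 55367 genes. RNA sequencing measured them in wild-type LLC cells, an established mouse line from a Lewis lung carcinoma, grown in medium with serum. The STM2457 group of 3 libraries was treated with 5 µM STM2457 for 46 h, and the DMSO group of 3 libraries received the solvent DMSO for 46 h. STM2457 is a small-molecule inhibitor of METTL3, which places the mark N6-methyladenosine (m6A) on messenger RNA. Whether the replicates were separate cultures is not stated in the labels. The p-values therefore describe the spread between these libraries, which may be technical.

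Colony-stimulating factors direct the growth, survival and differentiation of myeloid cells. M-CSF, encoded by Csf1, and interleukin-34 both bind the receptor CSF1R on macrophages and their precursors, while GM-CSF (Csf2) and G-CSF (Csf3) act mainly on granulocytes and macrophages. Cytokines of the IL-6 family signal through the shared receptor chain gp130, encoded by Il6st, which pairs with LIFR for leukaemia inhibitory factor and with OSMR for oncostatin M, and for IL-6 and interleukin-11 forms pairs of gp130. The receptor complexes switch on JAK kinases and the transcription factor STAT3. Tumour cells secrete several of these cytokines, which act on the myeloid cells around them and, where the receptors are present, on the tumour cells themselves.

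The libraries held 17877628 to 17917209 reads in genes with STM2457 and 17671699 to 17679458 with DMSO, as recovered from the deposited log2 values, and 3 reads, the upper limit set by a count of 0, equal 0.167 to 0.170 CPM, a limit for counting error alone. Mettl3 itself averaged 488 ± 32.5 normalised reads with STM2457 and 537 ± 66.0 with DMSO (SD, n = 3 each), and its groups overlapped (limma adjusted p = 0.15). Defining markers of epithelium were nearly absent: Epcam, Cdh1 and Nkx2-1 were at 0 in every library, and Krt8, Krt18 and Krt19 had 0 to 8 reads. Of 10 myeloid markers, Adgre1, Itgam, Tyrobp and Spi1 were at 0, Ptprc had 0 or 1 read, and the summed level of the list was 4.80 to 5.87 RPKM, reads scaled for exon length and library total, with STM2457 and 5.08 to 5.50 with DMSO, most of it Cd68. The 4 lymphoid markers, of which Cd3e and Nkg7 were at 0, summed to 0 to 0.133 RPKM with STM2457 and 0.0388 to 0.233 with DMSO, and the 3 endothelial markers to 0.0418 to 0.0825 with STM2457 and 0.0216 to 0.0451 with DMSO. The 3 fibroblast markers summed to 1.047 to 1.146 RPKM with STM2457 and 1.34 to 2.02 with DMSO, and 1 of them, Lum, fell, with 12, 13 and 3 reads with STM2457 and 25, 41 and 22 with DMSO (limma adjusted p = 0.00042). The 6 epithelial markers summed to 0 to 0.353 RPKM with STM2457 and 0.432 to 0.495 with DMSO. The part of the fibroblast and epithelial markers in the results was not tested.

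Of the 10 genes, 7 reached the level filter, a mean of 10 reads, and entered the test. After STM2457, Lif, Il34 and the shared receptor gene Il6st fell, to 0.560, 0.596 and 0.796 of the DMSO level. Csf1 rose 1.17-fold and Lifr 1.37-fold, both with calls that depended on the scaling and on single libraries. Il11 and Osmr did not pass the test, and Csf2, Csf3 and Il6 were close to 0 in both groups. These 3 lower and 2 higher genes of 7 stand against 56.3% of all 12618 tested genes called by limma at an adjusted p under 0.05, 25.7% lower and 30.7% higher. By limma-voom on the recovered reads 3 of the 7 were lower and 1, Lifr, higher, where 56.2% of tested genes were called, 27.5% lower and 28.7% higher. With each library centred on its upper quartile 3 of the 7 were lower and 0 higher, where 60.5% of tested genes were called, 38.2% lower and 22.3% higher. In bulk RNA, fewer cells that express a gene and less RNA per cell cannot be told apart.

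The levels spanned a wide range. Per exon length, Csf1 stood highest, with 81.4 to 88.1 RPKM in STM2457 libraries and 63.4 to 80.5 in DMSO libraries, above 95.4% of tested genes. Il6st followed with 12.4 to 12.8 RPKM with STM2457 and 14.8 to 16.6 with DMSO, then Lif with 4.95 to 5.30 with STM2457 and 8.44 to 9.68 with DMSO. Il34 came next, with 2.03 to 2.365 RPKM with STM2457 and 3.465 to 3.78 with DMSO. The next neighbours, Il11 with 1.56 to 1.80 RPKM with STM2457 and 1.115 to 1.77 with DMSO and Osmr with 1.27 to 1.38 with STM2457 and 0.986 to 1.47 with DMSO, overlapped across libraries and cannot be ordered. Lifr was the lowest tested gene, with 0.254 to 0.368 RPKM with STM2457 and 0.205 to 0.215 with DMSO, above only 3.41% of tested genes. The remaining neighbours in this order, down to Lifr, did not overlap in any of the 6 libraries.

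**Figure D1:**
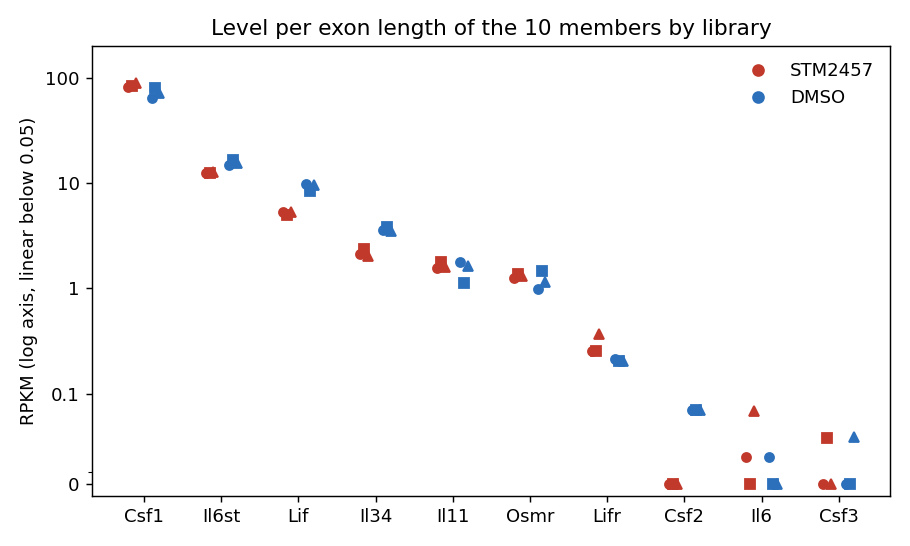
Level of each of the 10 genes in every library, in RPKM on a log axis that is linear below 0.05, with STM2457 libraries left of DMSO libraries and circles, squares and triangles for replicates 1, 2 and 3. Csf1 lies above 63 RPKM in every library, and Csf2, Il6 and Csf3 lie at or near 0.

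STM2457 acts on the m6A writer, and METTL3 is known to methylate adenosines within short motifs whose commonest core is GGACT in DNA letters, often near stop codons. No m6A was measured in these libraries, so the motif is given as a description of the messages only. In the reference transcripts of GENCODE M21, 92.4% of 11013 tested coding genes hold a GGACT, with a median of 1.04 per kilobase. Il34 holds 7 in 1709 bases, or 4.10 per kilobase, a density above that of 99.8% of these genes. Lif holds 7 in 4026 bases (1.74 per kilobase) and Il6st 10 in 8678 bases (1.15 per kilobase), all in the 3′ untranslated region. Csf1 holds 6, Il11 4, Osmr 5 and Lifr 8, at 1.44, 2.05, 0.911 and 0.829 per kilobase. The share of tested coding genes with a lower density was 82.4% for Lif and 57.1% for Il6st. It was 71.9% for Csf1, 89.7% for Il11, 41.7% for Osmr and 36.3% for Lifr. The windows below show, for the 3 genes that fell and for Csf1 and Il11, the GGACT nearest the stop codon in capitals, on the strand of the message and in build GRCm38.
Lif, chr11:4269348-4269372, plus strand: aatgtaccatGGACTgagggacctc
Il34, chr8:110742406-110742430, minus strand: taaaatggcaGGACTgcgagctgcc
Il6st, chr13:112504437-112504461, plus strand: ccgcagtgaaGGACTggctcctgaa
Csf1, chr3:107743120-107743144, minus strand: tgggcacacaGGACTatctctttat
Il11, chr7:4773548-4773572, minus strand: ctgtgactcgGGACTgaaaaccacc
The motif begins 26 bases after the first base of the stop codon in Lif, 4 in Il6st, 27 in Csf1 and 7 in Il11, all in the 3′ untranslated region, and 139 bases before it in Il34, in the coding sequence. A GGACT that begins within 30 bases after the first base of the stop codon, a distance chosen after these positions were seen, is present in 564 tested coding genes, or 5.12%. Of those 564 genes, 228 (40.4%) were called higher and 120 (21.3%) lower, with a median log2 difference of 0.039 in the deposited values. Of the 10449 genes without one, 33.5% were called higher and 24.7% lower, with a median of 0.014. The difference between these sets was not tested. Among the 4 members with such a motif, Lif and Il6st fell, Csf1 rose and Il11 did not pass.

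The AU-rich pentamer ATTTA, a common element of unstable cytokine messages, occurs at least once in the 3′ untranslated region of 69% of the tested coding genes, with a median of 1. Among the ligand genes Il11 and Il6 hold 10 each, Csf2 9, Lif 7, Csf3 6, Csf1 4 and Il34 1. The receptor genes overlap with them in number, with 11 in Lifr, 9 in Il6st and 4 in Osmr. These counts are not scaled for the length of the 3′ untranslated region. That length runs from 317 bases in Csf2 to 6320 in Lifr, with 5641 in Il6st. The nonamer TTATTTATT, which contains the pentamer and is present in 8.06% of tested coding genes, occurs 2 times in Lif, 5 in Il11 and 4 in Csf2, and in none of the other 7.

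Csf1 encodes M-CSF, the main growth factor of macrophages, and lies at chr3:107741048-107760469 on the minus strand. It had 7701, 7860 and 8320 reads in the STM2457 libraries and 5920, 7516 and 6679 in the DMSO libraries. The groups did not overlap, but the highest DMSO library, replicate 2, came close to the lowest STM2457 library. Csf1 averaged 7902 ± 308 normalised reads with STM2457 and 6700 ± 766 with DMSO (SD, n = 3 each). Its fold by limma-voom on the recovered reads was 1.17, with a 95% interval of 1.02 to 1.35. By limma on the deposited log2 values the difference was 0.14 (SE 0.045, adjusted p = 0.027). The call was lost with limma-voom on the recovered reads (adjusted p = 0.060 with TMM scaling and 0.052 with median-of-ratios scaling), with centring on the median (0.066) or the upper quartile (0.16), and without STM2457 replicate 3 (0.057) or DMSO replicate 3 (0.066). Over its alternatives the adjusted p of Csf1 ran from 1.1e-08, with no filter on low values, to 0.16.

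Il34 encodes interleukin-34, the other ligand of CSF1R, and lies at chr8:110741829-110805924 on the minus strand. It had 74, 83 and 71 reads with STM2457 and 125, 131 and 120 with DMSO. All 3 STM2457 libraries lay below all 3 DMSO libraries, and the spread within each group was small. Il34 fell to 0.596 of its DMSO level (95% interval 0.4965 to 0.7145), averaging 75.45 ± 6.30 normalised reads with STM2457 and 125 ± 4.75 with DMSO (SD, n = 3 each, limma adjusted p = 9.5e-06). Its exons overlap those of Gm15894 and Gm15895 on the other strand over 97 bases, and whether counting used strand is unknown here. The receptor of both ligands was all but unread in these cells, since Csf1r had 1, 0 and 0 reads with STM2457 and 1, 0 and 1 with DMSO. The level of Il34 relative to Csf1, as a ratio of RPKM values, was 0.0259, 0.0285 and 0.0230 in STM2457 libraries and 0.0569, 0.0470 and 0.0484 in DMSO libraries. Thus Csf1 was the more abundant of the pair in every library, and the ratios of the groups did not overlap.

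Lif encodes leukaemia inhibitory factor, an IL-6 family cytokine that keeps mouse embryonic stem cells undifferentiated and is secreted by many tumours. It lies at chr11:4257557-4272514 on the plus strand. Lif had 413, 386 and 410 reads with STM2457 and 744, 649 and 730 with DMSO. The 3 STM2457 libraries lay close together and far below the DMSO libraries, of which replicate 2 was the lowest. Lif fell to 0.560 of its DMSO level (95% interval 0.510 to 0.615), averaging 400.0 ± 14.4 normalised reads with STM2457 and 708 ± 55.1 with DMSO (SD, n = 3 each, limma adjusted p = 1.2e-10). Lif had the smallest adjusted p of the 7 tested members, and its log2 fold of -0.84 lay just outside the range from the 5th to the 95th percentile of all tested genes, which ran from -0.80 to 0.54. Its neighbour on the chromosome, the oncostatin M gene Osm, ends 16531 bases upstream with no coding gene between them and was at 0 in all 6 libraries.

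Il11 encodes interleukin-11, which signals through pairs of gp130, and lies at chr7:4772373-4782859 on the minus strand. It had 58, 67 and 59 reads with STM2457 and 65, 41 and 60 with DMSO. The groups overlapped, and DMSO replicate 2 was the lowest library. Il11 averaged 60.9 ± 4.955 normalised reads with STM2457 and 55.4 ± 12.9 with DMSO (SD, n = 3 each), 1.106-fold with a 95% interval of 0.858 to 1.425 (limma adjusted p = 0.47). That interval leaves room for a fall or a rise of some size.

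Csf2, Csf3 and Il6, which encode GM-CSF, G-CSF and IL-6, were hardly detected. Csf2 had 0 reads in each STM2457 library and 1 in each DMSO library, 3 reads in all. Csf3 had 0, 1 and 0 reads with STM2457 and 0, 0 and 1 with DMSO, and Il6 had 1, 0 and 3 with STM2457 and 1, 0 and 0 with DMSO. An exact two-sided permutation test of normalised reads gave p = 0.1 for Csf2, the smallest that 3 libraries against 3 allow, 1.0 for Csf3 and 0.7 for Il6. Both groups were at or under 3 reads in every library, so no difference was detectable at this depth. They lie at chr11:54247271-54249667 on the minus strand, chr11:98701263-98703629 on the plus strand and chr5:30013114-30019981 on the plus strand. The exons of Csf2 overlap those of Gm12223 on the other strand over 96 bases.

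Il6st encodes gp130, the signal-transducing chain that the whole family shares, and lies at chr13:112464070-112510086 on the plus strand. It had 2457, 2467 and 2535 reads with STM2457 and 2910, 3254 and 3046 with DMSO. The groups were well separated, with DMSO replicate 2 the highest library. Il6st fell to 0.796 of its DMSO level (95% interval 0.751 to 0.843), averaging 2468 ± 38.4 normalised reads with STM2457 and 3068 ± 158 with DMSO (SD, n = 3 each, limma adjusted p = 5.8e-07).

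Lifr encodes the receptor chain that binds leukaemia inhibitory factor and pairs with gp130, and lies at chr15:7090614-7197489 on the plus strand. It had 49, 49 and 71 reads with STM2457 and 41, 39 and 39 with DMSO. The groups did not overlap, and STM2457 replicate 3 stood well above the other libraries. Lifr averaged 55.9 ± 12.5 normalised reads with STM2457 and 39.65 ± 1.24 with DMSO (SD, n = 3 each), 1.37-fold with a 95% interval of 1.05 to 1.79 (limma adjusted p = 0.021). The call was lost without STM2457 replicate 3 (adjusted p = 0.18) or DMSO replicate 3 (0.051), and with centring on the median (0.13) or the upper quartile (0.17). Over its alternatives the adjusted p ran from 0.013, with no filter on low values, to 0.18.

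Osmr encodes the oncostatin M receptor chain, the other receptor partner of gp130 among the members. It lies at chr15:6813577-6874969 on the minus strand, 215645 bases from Lifr with no coding gene between them. It had 275, 299 and 284 reads with STM2457 and 211, 314 and 246 with DMSO. The DMSO libraries spread around the tight STM2457 group on both sides. Osmr averaged 284 ± 12.2 normalised reads with STM2457 and 257 ± 50.9 with DMSO (SD, n = 3 each), 1.106-fold with a 95% interval of 0.9455 to 1.29 (limma adjusted p = 0.23). Without DMSO replicate 2, whose normalised reads of Osmr were 1.36 times the mean of the other DMSO libraries, it passed as higher (adjusted p = 0.0043).

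**Figure D2:**
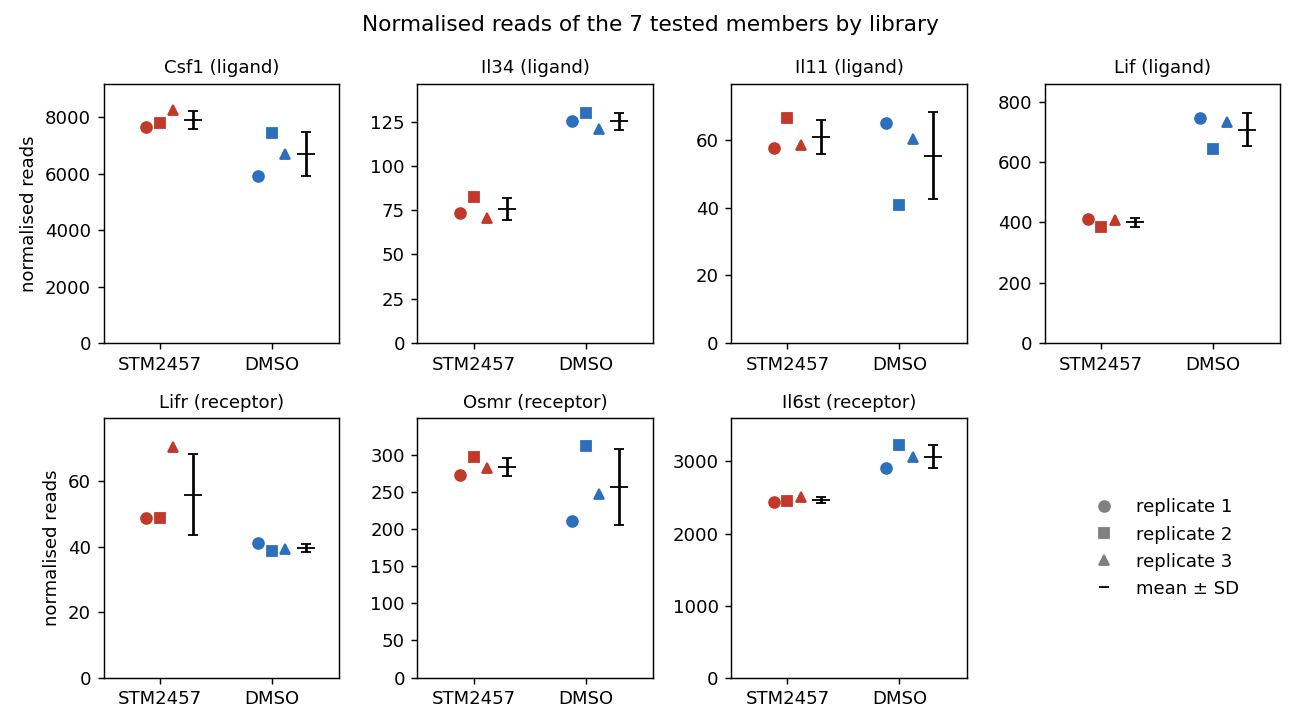
Normalised reads of the 7 tested genes in each library, on linear axes from 0, with STM2457 left of DMSO, symbols for replicate numbers and black marks for the mean and SD (n = 3). The 3 STM2457 libraries lie below all DMSO libraries for Il34, Lif and Il6st and above them for Csf1 and Lifr, and overlap with them for Il11 and Osmr.

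Set against each other, the 4 tested ligand genes had a median log2 difference of -0.091 in the deposited values, with 1 higher and 2 lower, and the 3 receptor genes one of 0.067, with 1 higher and 1 lower. Over all tested genes the median was 0.004. The classes did not move as blocks: the ligands ran from -0.411 (Lif) to 0.143 (Csf1) and the receptors from -0.181 (Il6st) to 0.091 (Lifr). With limma-voom on the recovered reads the medians were -0.301 for the ligands, 0.145 for the receptors and -0.006 for all tested genes. The difference of the class medians, -0.16 in the deposited values, shrank to -0.03 with the stricter level filter, which leaves out Lifr, and to -0.09 without DMSO replicate 1. Groups were fully separated for 5 of the 7 genes, where 61.8% of all tested genes were, 33.4% with STM2457 above and 28.4% with STM2457 below.

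Lif and its own receptor gene went opposite ways, Lif down and Lifr up, so that their levels came closer. The call for Lifr was lost with either centring and without STM2457 replicate 3 or DMSO replicate 3. The ratio of Lif to Lifr, in RPKM, was 20.9, 19.5 and 14.3 in STM2457 libraries and 44.95, 41.2 and 46.4 in DMSO libraries. The ratio of Lif to Il6st was 0.429, 0.399 and 0.413 with STM2457 and 0.652, 0.509 and 0.6115 with DMSO. In every library Il6st exceeded Lif, Osmr and Lifr, and Lifr was the scarcest of the receptor chains, at 0.0205 to 0.02885 of the Il6st level with STM2457 and 0.0123 to 0.0145 with DMSO. These ratios are given without a test, and those of Lif to Lifr and of Lifr to Il6st rest on 39 to 71 reads of Lifr a library.

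**Figure D3:**
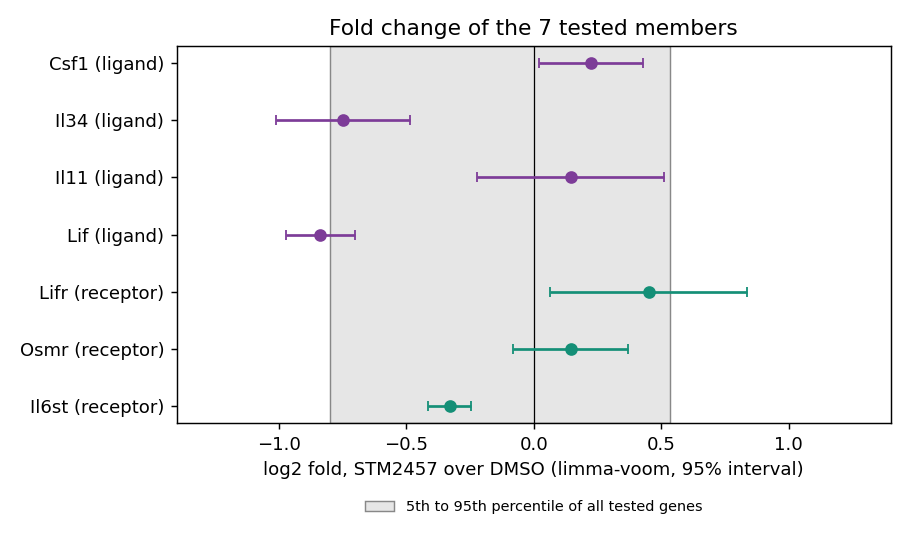
Log2 fold of the 7 tested genes, STM2457 over DMSO, fitted by limma-voom on the recovered reads with 95% intervals, ligands in purple and receptors in green. The grey band from -0.80 to 0.54 holds the middle 90% of all tested genes; the point of Lif lies just below it and all others inside it.

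Promoter sequence, from 250 bases before to 50 after the annotated start in RefSeq (GRCm38.p6), was at hand for 8 of the 10 genes, all but Csf3 and Il34. It was searched on both strands for TGANTCA (AP-1), GGG followed by NNNNN and CC (NF-kappa-B), TTGCNNAA (C/EBP), TTCNNNGAA (STAT) and GAAA followed by NN and GAAA (ISRE, the interferon response element). Overlapping matches were counted. Of 32851 promoters of that length, 7.81% hold the AP-1 letters, 50.8% the NF-kappa-B letters, 10.8% C/EBP, 8.3% STAT and 3.44% ISRE. AP-1 letters are present in the promoters of Lif, Il6, Osmr and 1 of the 2 starts of Il11, C/EBP letters in Csf2 and Il6, and NF-kappa-B letters in all 8, for Il11 in the other of its 2 starts, while STAT and ISRE letters were found in none of these windows. The promoters of Lif, the member with the smallest adjusted p, and Csf1, the most abundant, are printed 5′ to 3′ with all matches in capitals.
Lif, chr11:4257318-4257617, plus strand: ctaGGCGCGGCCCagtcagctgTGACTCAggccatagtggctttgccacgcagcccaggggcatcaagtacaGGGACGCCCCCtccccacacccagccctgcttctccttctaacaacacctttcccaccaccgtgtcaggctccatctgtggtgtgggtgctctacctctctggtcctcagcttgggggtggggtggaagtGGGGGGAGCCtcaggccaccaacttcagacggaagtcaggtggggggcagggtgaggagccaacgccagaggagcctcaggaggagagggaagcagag
Csf1, chr3:107760420-107760719, minus strand: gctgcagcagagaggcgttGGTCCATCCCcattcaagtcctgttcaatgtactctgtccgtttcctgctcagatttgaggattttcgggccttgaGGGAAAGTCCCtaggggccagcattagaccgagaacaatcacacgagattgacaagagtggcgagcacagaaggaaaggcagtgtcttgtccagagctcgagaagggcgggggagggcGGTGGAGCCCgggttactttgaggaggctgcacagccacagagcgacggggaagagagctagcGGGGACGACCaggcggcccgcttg
The AP-1 letters of Lif, TGACTCA, begin 228 bases before the start, and a pair of overlapping NF-kappa-B matches in Csf1 begin 155 and 154 bases before it. Genes for transcription factors of cytokine genes, a list that also holds factors of other motifs, went different ways. Of 17 tested factors known to act on cytokine genes, 7 rose and 3 fell (median log2 difference 0.062). The share called in either direction is close to the 56.3% over all tested genes, whose median was 0.004. By direction, 30.7% of all tested genes were higher and 25.7% lower. Whether these factors differ from other genes was not tested. The NF-kappa-B subunit gene Rela rose to 2588 ± 48.8 normalised reads with STM2457, against 2036 ± 29.8 with DMSO (SD, n = 3 each). The AP-1 gene Jund rose to 1522 ± 89.0 with STM2457, against 1043 ± 74.4 with DMSO (SD, n = 3 each). Over 877 of its 1668 exon bases Jund overlaps Gm11175 on the other strand, and whether counting used strand is unknown. The T cell activation factor gene Nfatc1 rose 1.404-fold, and the stress factor gene Atf4 fell to 9893 ± 302 normalised reads with STM2457, against 15000 ± 1089 with DMSO (SD, n = 3 each).

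Partners of these cytokines were few in the cells. Of 10 receptor genes that pair with the members, 3 were tested and 1 rose, a share close to the 30.7% of all tested genes called higher. That was Sdc1, a cell-surface proteoglycan that has been described as a binding partner of interleukin-34, with 3469 ± 48.6 normalised reads with STM2457 and 2944 ± 120 with DMSO (SD, n = 3 each, limma adjusted p = 1.3e-05). The alpha chains that give gp130 its ligands did not pass. Il6ra measured 323 ± 14.5 normalised reads with STM2457 and 318 ± 14.6 with DMSO (SD, n = 3 each, limma adjusted p = 0.80). Il11ra1 measured 91.3 ± 4.46 with STM2457 and 95.6 ± 7.13 with DMSO (SD, n = 3 each, limma adjusted p = 0.66). The direction of Il6ra turned with median or upper-quartile centring and without DMSO replicate 2, and the exons of Il11ra1 and Il6ra overlap a gene on the other strand. Csf2ra, Il11ra2 and Ptprz1 were at 0, and Csf2rb, Csf2rb2 and Csf3r averaged under 2 normalised reads in each group.

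Of 11 other genes of the IL-6 family, 4 were tested, with 1 higher and 1 lower, where 30.7% of all tested genes were higher and 25.7% lower. Il27ra, the receptor of interleukin-27, fell to 10.9 ± 1.01 normalised reads with STM2457, against 20.35 ± 6.22 with DMSO, a call lost without STM2457 replicate 3 (adjusted p = 0.063) or DMSO replicate 3 (0.14). The ligand genes Ctf1, with 104 ± 13.5 normalised reads with STM2457 and 124 ± 6.80 with DMSO, and Clcf1, with 267 ± 15.35 with STM2457 and 262 ± 18.3 with DMSO, did not pass (SD, n = 3 each), and Clcf1 turned direction with either centring. Ctf1 passed as lower with upper-quartile centring (adjusted p = 0.0071), with median centring (0.009), without the trend and robust priors (0.037) and without STM2457 replicate 2 (0.022) or DMSO replicate 2 (0.046).

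In the relay below the receptors, all 18 genes of the JAK-STAT list were tested, and 6 rose and 3 fell (median log2 difference 0.049), a share no larger than the 56.3% called over all tested genes. The feedback inhibitor genes of the list split. Socs1 rose to 313 ± 23.9 normalised reads with STM2457, against 196 ± 4.68 with DMSO, and Socs2 to 84.7 ± 9.505 with STM2457, against 53.6 ± 16.2 with DMSO. Socs3, the inhibitor that binds gp130, fell to 820 ± 53.1 with STM2457, against 991 ± 36.2 with DMSO (SD, n = 3 each). The limma adjusted p was 2.0e-07 for Socs1, 0.0017 for Socs2 and 1.0e-04 for Socs3. Pias1, which encodes an inhibitor of activated STATs, rose 1.15-fold (adjusted p = 0.0012). Stat3 itself had 1344 ± 29.7 normalised reads with STM2457 and 1257 ± 6.95 with DMSO (SD, n = 3 each) and did not pass (limma adjusted p = 0.059), though its groups did not overlap. Its exons overlap those of Stat5a on the other strand, and it is named here after its values were seen.

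Among 18 tested genes known as STAT3 targets, 5 rose and 5 fell (median log2 difference 0.043), about the 56.3% called over all tested genes. The kinase genes Pim3 and Pim1 fell, to 1282 ± 49.8 normalised reads with STM2457 against 1996 ± 147 with DMSO and to 229 ± 16.7 with STM2457 against 346 ± 41.5 with DMSO (SD, n = 3 each). The survival gene Mcl1 rose 1.37-fold and Gadd45g 1.45-fold, with adjusted p-values by limma of 4.2e-10 and 1.1e-06. Of 2 proteases that shed cytokine receptors from the cell surface, Adam10 rose 1.17-fold (limma adjusted p = 5.6e-05) and Adam17 measured 1.05-fold (0.061), which passed without DMSO replicate 1 (0.04).

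Of 12 tested genes for RNA-binding proteins that control the stability of cytokine messages, 7 rose and 3 fell (median log2 difference 0.106), where 30.7% of all tested genes were higher and 25.7% lower with a median of 0.004. Whether the list differs from other genes was not tested. The roquin gene Rc3h1, whose product marks cytokine messages for decay, rose 1.28-fold, the decay factor gene Khsrp 1.13-fold and Zc3h12c, a relative of the ribonuclease regnase-1, 1.38-fold. Tia1, a translational repressor, measured 1122 ± 30.4 normalised reads with STM2457 and 1432 ± 40.7 with DMSO (SD, n = 3 each) and fell (limma adjusted p = 3.5e-07). Arid5a, known to stabilise Il6 messages in mouse, fell to 153 ± 22.2 normalised reads with STM2457, against 342 ± 94.2 with DMSO (SD, n = 3 each, limma adjusted p = 0.018), and was named after its values were seen. That call was lost without STM2457 replicate 2 (adjusted p = 0.053) or DMSO replicate 3 (0.059). Exons of Khsrp, Zc3h12c, Jund, Pim1, Adam17, Il27ra and Ctf1 overlap a gene on the other strand. Those overlaps span 63, 117, 877, 488, 311, 2 and 87 bases, in that order. Exons of Tia1 and Clcf1 overlap a gene on the same strand, over 352 and 311 bases.

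**Figure D4:**
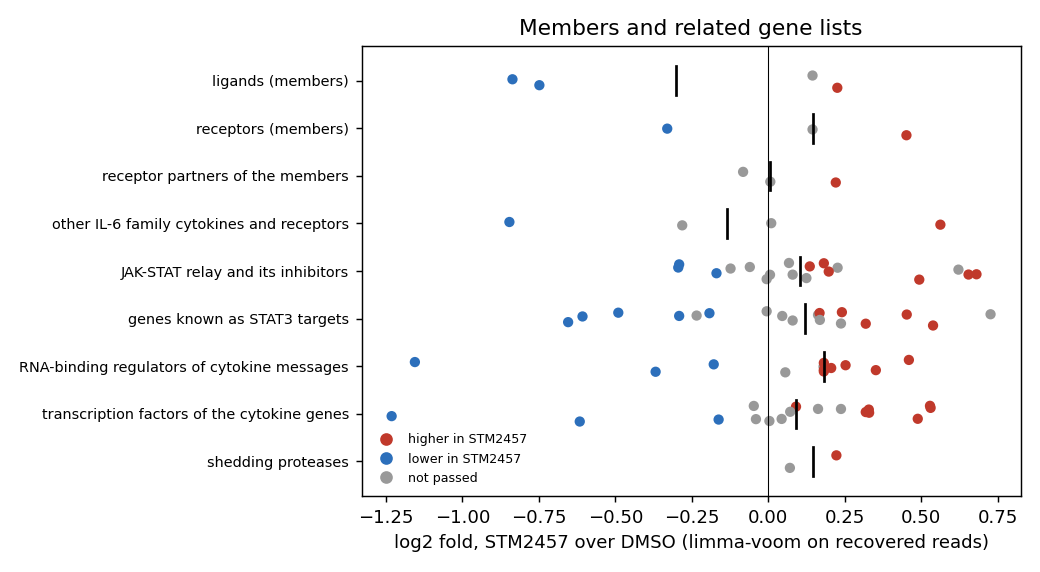
Log2 fold by limma-voom on the recovered reads, STM2457 over DMSO, for each tested gene of the members and of 7 related lists. Points are red where limma on the deposited values called the gene higher with STM2457, blue where lower and grey where it did not pass, and black bars mark the median of each list, which lies below 0 for the ligands and for the other IL-6 family genes.

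The genes whose deposited log2 values followed a member most closely over the 6 libraries were found by Pearson correlation. Clone, pseudogene and identifier names were left out of the search and of the counts of genes with r above 0.95. The group difference and the libraries are shared by all genes found, so the values are descriptions. Closest to Lif were the clock gene Per1 (r = 0.9988), Ankrd37 (0.9987) and Insig2 (0.9984), a regulator of cholesterol synthesis, among 786 tested genes with r above 0.95. Per1 averaged 828 ± 21.9 normalised reads with STM2457 and 1095 ± 51.0 with DMSO, and Ankrd37 54.9 ± 5.41 with STM2457 and 213 ± 23.2 with DMSO (SD, n = 3 each), so that genes with like patterns differed widely in the size of the fall. Closest to Il6st were Lhfpl2 (0.9991), Dph6 (0.9989) and the proline synthesis gene Pycr1 (0.9989). Closest to Il34 were the ubiquitin ligase gene Siah2 (0.9977), Cpsf3 (0.9975) and the ferritin gene Fth1 (0.9962). For the genes that rose the nearest were Tle2 (0.9937), Mpc1 (0.9883) and Ilvbl (0.9878) for Csf1, and Rgs9bp (0.993), Flad1 (0.9888) and Itga1 (0.9855) for Lifr, where 57 and 29 genes had r above 0.95.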

How the data were processed

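Per the labels' protocols, RNA of LLC cells was taken up in TRIzol and sequenced after a SMARTER mRNA-Seq preparation. Tools named in the submitters' processing notes are HISAT2 2.2.1, featureCounts 2.0.1 and DESeq2, with build GRCm38. Neither the counting annotation nor its strand setting was found in the labels. The authors deposited log2 values per gene symbol and library, which have the form of a regularised log2 transform, shrunken towards the mean of the libraries. Their differences therefore understate the change.

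The transform was inverted to recover reads, with the ridge penalty, dispersion trend and size factors estimated from the values. Of values for genes with a mean under 500 reads, 98.8% were whole to within 0.05 reads, and every value of the 10 members lay within 0.0542 reads of a whole number. Normalised reads are reads divided by the size factor. RPKM values use the union of GENCODE M21 exons, which can hold rarely used exons.

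The test covered genes whose deposited values averaged 3.32 or more, which is 10 reads, and used limma 3.58.1 in R 4.3.3 (trend and robust priors, statmod 1.5.0), with the Benjamini-Hochberg adjustment over 12618 genes at 0.05. Folds, with 95% intervals, come from limma-voom on the recovered reads with TMM scaling. The code was run on data simulated with the same equations and the same estimated settings. Such a run cannot show whether the deposited values come from this transform. The members and lists were chosen with earlier results of these data known. The text names the members, Mettl3, up to 4 tested genes of smallest adjusted p per list and the 3 genes most alike each called member. A gene that this rule takes from the lists is not reported here. Of the level references Actb, Gapdh and Hprt, the fold of STM2457 over DMSO was 1.32, 0.809 and 1.04, and the first and the second passed.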

Additional observations from a re-analysis of the deposited data

How the results depend on the processing

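Lif, Il34 and Il6st stayed lower and past the threshold under all 14 alternatives. The number of members called higher, 2, was 0 with median or upper-quartile centring, 1 with the stricter filter or limma-voom under either scaling, and 0 to 3 when single libraries were left out. The difference for Csf1 was 0.111 with median and 0.106 with upper-quartile centring and 0.226 with limma-voom under either scaling, none past the threshold, and 0.094 to 0.191 without single libraries. Lifr gave 0.059 and 0.054 with the centrings and 0.052 to 0.111 without single libraries, and Osmr 0.012 to 0.131. Il11 turned to -0.002 and -0.007 with the centrings and ran from -0.010 to 0.057 without single libraries. Ligands against receptors gave -0.034 with the stricter filter, -0.446 with limma-voom under either scaling and -0.195 to -0.090 without single libraries. Il6ra turned to -0.021 and -0.027 and Clcf1 to -0.021 and -0.026 with the centrings, with -0.005 to 0.028 and -0.002 to 0.036 without single libraries. Other IL-6 family genes called lower numbered 2 with either centring or without trend and robust priors, 0 with the stricter filter and 0 to 2 without single libraries, and 2 were higher with no filter. JAK-STAT genes called lower numbered 5 with either centring and 1 to 3 without single libraries. Cytokine gene factors called lower numbered 1 to 3, and shedding proteases called higher 1 to 2, without single libraries. Mettl3 passed as lower with median (adjusted p = 0.035) and upper-quartile centring (0.04) and without DMSO replicate 1 (0.0089). Centring moves all genes of a library by the same amount, and here it lowered the differences of single genes alike. Limma-voom values lack the shrinkage of the deposited values, so their sizes cannot be compared with those. Other causes were not tested, apart from the lost members under the stricter filter. Deviations of same-numbered libraries correlated weakly (0.0501, 0.011 and 0.0399), against -0.0563 to 0.0218 for differently numbered ones. With 3 libraries a group, these values cannot show whether the numbers pair the libraries. With the replicate number as a block, 3864 genes were higher and 3226 lower against 3868 and 3240 without it, and 2 members were higher and 3 lower. The limma adjusted p of Csf1 was 0.00022 with that block and 0.027 without it. Differences in Csf2, Csf3 and Il6 are limited by depth.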
